A study of Mus musculus with 8 samples.

Results

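A set of 10 genes stood at the centre of the measurements described here: Mpo, Elane, Prtn3, Ctsg, Csf3r, Fcgr3, Clec12a, Csf1r, Cebpa and Cebpe. They were chosen by name as genes of granulocyte-monocyte progenitors, the marrow cells that give rise to neutrophils and monocytes. Earlier results of these data were known when the choice was made. All 10 were among the 23358 genes of the count table, and all 10 passed the filter on low counts that left 14086 genes to test. RNA was sequenced from mouse bone marrow hematopoietic stem cells, gated as Lin-Sca+Kit+CD48-CD150+ and put into Trizol without culture. There were 3 libraries labelled Huwe1 KO (Mx1-Cre), 2 labelled Huwe1 KO (Vav-Cre) and 3 labelled wild type. The Huwe1 protein is a HECT-type ubiquitin ligase of unusual size. Mx1-Cre is driven by an interferon-inducible promoter that also acts outside blood, and Vav-Cre by a promoter active in all blood cells from early development. The labels list no treatment and name no inducing agent, age, sex or strain, and they do not say whether the wild type animals carried a Cre or a floxed allele. They also do not say whether the libraries of a group came from separate animals, so the p-values measure the spread between these libraries, which may be partly technical.

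Granulocyte-monocyte progenitors and promyelocytes fill their first, or azurophil, granules with myeloperoxidase and a group of serine proteases that attack ingested microbes. The transcription factors PU.1 and C/EBP alpha switch this programme on, C/EBP epsilon acts later, when granule production turns to the secondary granules, and the receptors for G-CSF and M-CSF carry the signals that favour neutrophils or monocytes. Stem cells hold low amounts of such transcripts, a state often called myeloid priming, although they make no granules.

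The 4 granule proteins of the set are shown with sequence from before their transcription starts, because this is where the factors named above are known to act on them. Each stretch began 250 bases before the RefSeq start and ended there or at an earlier GENCODE transcript start. It was thereby cut to 47 bases for Mpo, 185 for Elane and 197 for Prtn3, while all 250 are shown for Ctsg. The sequences are from RefSeq, mouse build GRCm38.p6, and run 5' to 3' on the strand of the gene; capitals mark the core GAGGAA of PU.1-type sites.
Mpo, chr11:87793534-87793580, plus strand: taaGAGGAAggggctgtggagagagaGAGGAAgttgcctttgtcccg
Elane, chr10:79886062-79886246, plus strand: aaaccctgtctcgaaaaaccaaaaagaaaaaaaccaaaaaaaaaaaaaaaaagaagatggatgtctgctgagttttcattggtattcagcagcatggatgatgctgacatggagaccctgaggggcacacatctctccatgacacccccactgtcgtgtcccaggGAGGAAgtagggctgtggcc
Prtn3, chr10:79879417-79879613, plus strand: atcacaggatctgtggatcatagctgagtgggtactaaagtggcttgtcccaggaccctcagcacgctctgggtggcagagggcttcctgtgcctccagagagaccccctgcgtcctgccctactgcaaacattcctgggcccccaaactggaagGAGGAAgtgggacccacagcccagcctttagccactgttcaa
Ctsg, chr14:56102575-56102824, minus strand: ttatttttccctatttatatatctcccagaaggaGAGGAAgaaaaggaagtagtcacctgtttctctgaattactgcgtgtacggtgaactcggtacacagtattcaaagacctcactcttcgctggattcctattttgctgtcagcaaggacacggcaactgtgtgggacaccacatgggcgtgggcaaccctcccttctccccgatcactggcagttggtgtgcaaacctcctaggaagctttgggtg

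Motifs were searched on both strands in the full 250 bases before each RefSeq start, for 8 of the 10 genes and for 32851 windows in all. For Mpo, Elane and Prtn3 these windows are longer than the stretches printed above. The longer PU.1-type letters GAGGAAGT, which include GAGGAA, occurred before Elane, Mpo and Prtn3, 3 of 8 genes, and in 2.44% of all windows. The shorter GAGGAA occurred in 7 of 8, with Cebpa as the exception, and in 23.3% of all windows. A C/EBP-type motif, TTGCNNAA, was present before Clec12a and Fcgr3 and in 9.56% of all windows. The RUNX-type TGTGGT was present before Clec12a and Ctsg and in 14.0% of all windows. Elane and Prtn3 are neighbours on chromosome 10 and share the longer PU.1-type letters with Mpo. In the tests that follow, Mpo and Elane were called lower with both knockout lines averaged and Prtn3 was not. Only Mpo was also called in each line by itself. A match of letters is a description of the window and not a measured site.

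The libraries held 28689765 to 33202926 counts and 14601 to 15554 detected genes. Huwe1 itself averaged 418 ± 23.4 CPM (counts scaled to the library size with TMM, the unit of all levels here) in Mx1-Cre libraries, 467 ± 32.2 in Vav-Cre libraries and 421 ± 20.5 in wild type libraries (SD, n = 3, 2 and 3). A single count per gene cannot show the loss of some exons, so the knockout labels could not be checked from it. All 10 stem cell markers examined were detected in every library, with a summed level of 2265 to 4147 CPM in Mx1-Cre libraries, 3727 and 3978 CPM in Vav-Cre libraries and 3648 to 4220 CPM in wild type libraries. Of the genes of the sort gate, Kit averaged 0.16 ± 0.24 higher on the log2 scale in the knockout lines (edgeR, adjusted p = 0.821). Ly6a averaged 0.26 lower (-0.26 ± 0.28, adjusted p = 0.731) and Cd48 0.25 ± 0.16 higher (adjusted p = 0.503). Slamf1 averaged 0.19 higher (edgeR adjusted p = 0.467), and none of these genes passed with both lines averaged. In Mx1-Cre libraries Cd48 stood at 19.2 to 22.5 CPM, above the 14.8 to 16.1 CPM of wild type. There, Ly6a stood at 42.4 to 60.7 CPM, below 75.5 to 96.0, and Slamf1 at 49.0 to 58.1, below 62.8 to 68.4. The Vav-Cre libraries had 15.2 and 15.4 CPM of Cd48, 50.6 and 144 of Ly6a and 105 and 108 of Slamf1. Kit overlapped between all groups. The Vav-Cre 2 library stood apart from the others in Fcer1a and Gzmb, genes of the mast cell and basophil list, as given beside the results it touches.

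Several of the myeloid progenitor transcripts were lower in the knockout stem cells. With both knockout lines averaged against wild type, Mpo, Elane, Csf3r, Fcgr3 and Clec12a fell, and none of the 10 genes rose. Prtn3, Ctsg, Csf1r, Cebpa and Cebpe did not pass the test. A gene was called when its Benjamini-Hochberg adjusted p over all 14086 genes was under 0.05 in edgeR's quasi-likelihood test. The 5 genes called lower compare with 2.1% of all tested genes called lower and 0.547% called higher. Because the 10 were chosen with earlier results of these data known, this comparison is a description and no independent evidence. The median log2 fold change of the 10 genes was -1.53, against 0.00 over all tested genes, of which the lowest 5% lay below -1.49. The fold was negative for 8 of the 10 genes, or 80.0%, against 49.96% of all tested genes.

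All 5 knockout libraries lay below all 3 wild type libraries for 6 of the 10 genes, namely Mpo, Elane, Ctsg, Csf3r, Fcgr3 and Clec12a, and 7.28% of all tested genes did so. The same 6 genes separated the 3 Mx1-Cre libraries from wild type, where the share of all genes was 14.8%. Csf1r joined them when only the 2 Vav-Cre libraries were set against wild type, which made 7 genes, with a share of 17.1% of all genes. In bulk samples such as these, fewer cells with myeloid transcripts and less of the transcript per cell cannot be told apart.

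**Figure D1:**
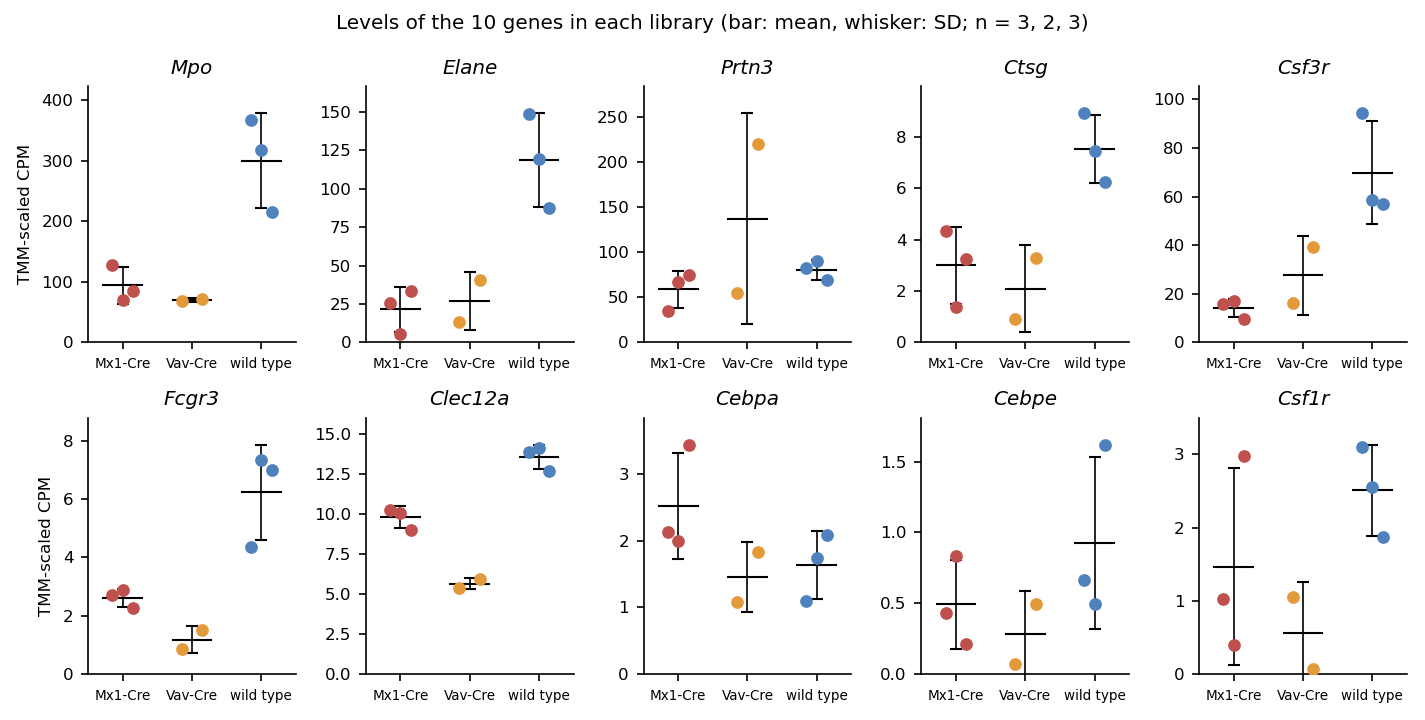
Level of each of the 10 genes in every library, in TMM-scaled CPM on a linear axis that starts at 0 and differs between panels; points are libraries, bars are group means and whiskers the SD (n = 3 Mx1-Cre, 2 Vav-Cre, 3 wild type), cut at 0 for Cebpe and Csf1r in Vav-Cre. The knockout points of Mpo, Elane, Ctsg, Csf3r, Fcgr3 and Clec12a all lie below the wild type points, and Prtn3 in the second Vav-Cre library, at 220 CPM, lies above every other library.

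Mpo encodes myeloperoxidase, the enzyme that makes hypochlorous acid in the neutrophil phagosome and the classical marker of myeloid commitment. It had 128, 70.2 and 84.0 CPM in the 3 Mx1-Cre libraries and 67.9 and 72.0 CPM in the 2 Vav-Cre libraries, against 367, 318 and 215 CPM in the 3 wild type libraries. The highest knockout library was thus well under the lowest wild type library. Mpo fell 3.70-fold with both lines averaged, a log2 fold change of -1.89 ± 0.21 (SE, 95% interval -2.36 to -1.41, edgeR adjusted p = 0.00339). It was the only one of the 10 genes called in each line by itself: 3.19-fold lower in Mx1-Cre (adjusted p = 0.0103) and 4.29-fold lower in Vav-Cre (adjusted p = 0.0244). A predicted gene, Gm11505, overlaps Mpo on the opposite strand, and counting without strand cannot separate their reads.

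Elane encodes neutrophil elastase, a serine protease of the same granules and the gene most often mutated in human congenital neutropenia. Its levels were 25.5, 5.33 and 33.4 CPM in Mx1-Cre and 13.5 and 40.3 CPM in Vav-Cre libraries, against 148, 119 and 87.4 CPM in wild type. No library overlapped between knockout and wild type, although the knockout libraries differed widely among themselves, with Mx1-Cre 2 the lowest. The averaged log2 fold change was -2.30 ± 0.49 (95% interval -3.39 to -1.21), the most negative of the 10, and it passed the edgeR test at an adjusted p of 0.0369. It was not called in Mx1-Cre (-2.46 ± 0.58, adjusted p = 0.0553) or in Vav-Cre (-2.14 ± 0.67, adjusted p = 0.198) taken alone. The averaged call of Elane was lost without any 1 wild type library (adjusted p 0.108 to 0.142), Mx1-Cre 1 (0.0715) or Vav-Cre 1 (0.0841). The Mx1-Cre result of Elane passed in 8 of 16 alternatives, among them limma-voom with quality weights (adjusted p = 0.00381) and DESeq2 (0.0195).

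Prtn3 encodes proteinase 3, which cleaves many of the same substrates as elastase and is the autoantigen of ANCA vasculitis in humans. It had 35.1, 67.0 and 74.4 CPM in Mx1-Cre and 55.0 and 220 CPM in Vav-Cre libraries, against 82.5, 89.9 and 68.8 CPM in wild type. Here the groups overlapped: Mx1-Cre 3 lay within the wild type range, and Vav-Cre 2 held a higher level than any other library. The averaged log2 fold change was 0.16 ± 0.38 (95% interval -0.68 to 1.00, edgeR adjusted p = 0.900). Without Vav-Cre 2 it was -0.50, so 1 library set the direction of Prtn3. That library had 6729 counts of Fcer1a, the IgE receptor chain of mast cells and basophils, against 57 to 411 in the other knockout libraries and 0 to 7 in wild type. Its summed level over the 7 mast cell and basophil markers was 241 CPM, against 16.5 CPM in Vav-Cre 1, 24.8 to 41.2 CPM in Mx1-Cre and 10.4 to 14.9 CPM in wild type. Fcer1a made up 209 CPM of that sum. Gzmb, at 6.45 CPM in Vav-Cre 2, was also highest there. It was at 0 to 0.781 CPM in Mx1-Cre, 0 in Vav-Cre 1 and 0 to 0.0985 CPM in wild type libraries. Cpa3, at 25.2 CPM in Vav-Cre 2, was no higher there than the 25.5 CPM of Mx1-Cre 2, and Ms4a2 and Mcpt8 were at 0.899 and 0.0620 CPM. Prss34 had no count in any knockout library and Cma1 none in either Vav-Cre library. The part of Fcer1a and the other markers in the Prtn3 value was not tested.

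Ctsg encodes cathepsin G, the chymotrypsin-like protease of the same granules. Its levels were 4.35, 1.38 and 3.27 CPM in Mx1-Cre and 0.911 and 3.29 CPM in Vav-Cre libraries, against 8.91, 7.45 and 6.25 CPM in wild type. The groups did not overlap, and the averaged log2 fold change of -1.58 ± 0.45 had a 95% interval of -2.58 to -0.59. It did not pass in edgeR (adjusted p = 0.101), while DESeq2 (adjusted p = 0.0184) and limma-voom (adjusted p = 0.0432) both called Ctsg lower. Its raw counts of 26 to 141 in the knockout libraries and 201 to 270 in wild type limit the precision.

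The make-up of the granule transcripts differed along with their amount. Among the summed counts of Mpo, Elane, Prtn3 and Ctsg, Prtn3 took 18.2, 46.5 and 38.1% with Mx1-Cre and 40.1 and 65.5% with Vav-Cre, against 13.6, 16.8 and 18.3% in wild type. The Mx1-Cre 1 library was thus inside the wild type range for Prtn3 and the 4 other knockout libraries above it. Elane took 13.2, 3.71 and 17.1% with Mx1-Cre and 9.82 and 12.0% with Vav-Cre, against 24.4, 22.3 and 23.2% in wild type, with no overlap. The ratio of Elane to Prtn3 counts was 0.0796 to 0.727 with Mx1-Cre and 0.183 and 0.245 with Vav-Cre, below the 1.27 to 1.80 of wild type libraries. For Mpo against Elane the ratio was 2.51 to 13.2 with Mx1-Cre and 1.79 and 5.03 with Vav-Cre, and 2.45 to 2.66 in wild type, so the wild type libraries were close to each other and the knockout libraries scattered on both sides. These shares are descriptions, since they were formed after the single values were known.

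**Figure D2:**
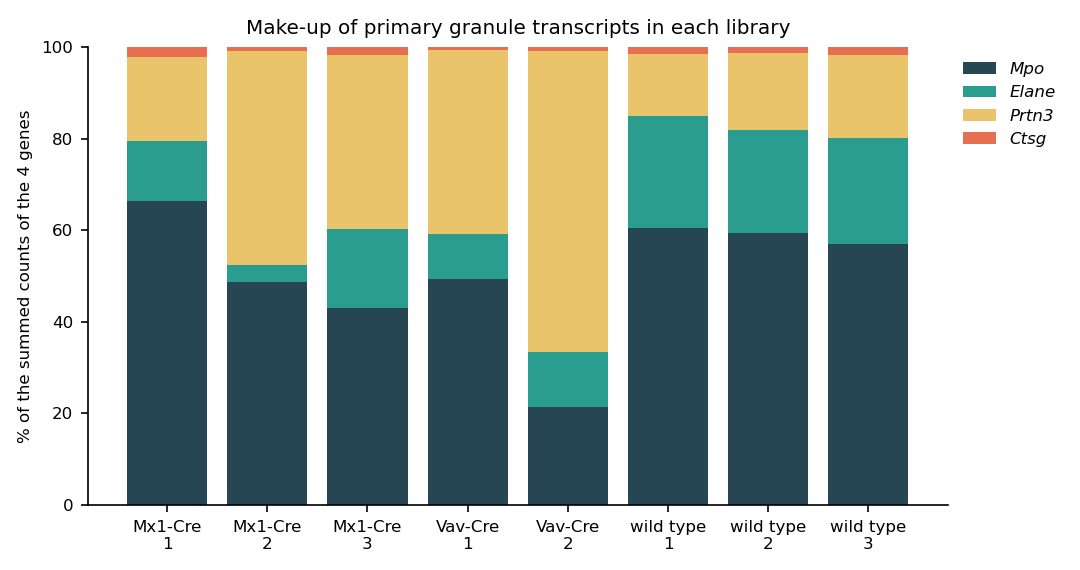
Share of each of the 4 granule genes in their summed counts, in percent, by library, with knockout libraries before wild type. Prtn3 took 18.2 to 65.5% in the knockout libraries, with the most in the second Vav-Cre library, and 13.6 to 18.3% in wild type, while Elane took 3.71 to 17.1% in the knockout libraries and 22.3 to 24.4% in wild type.

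Among the receptors, Csf3r encodes the G-CSF receptor, which drives neutrophil production and the mobilisation of stem cells. It had 15.9, 16.9 and 9.72 CPM in Mx1-Cre and 16.1 and 39.05 CPM in Vav-Cre libraries, against 94.2, 58.5 and 57.1 CPM in wild type. No knockout library reached the wild type range, and Vav-Cre 2 came nearest. Csf3r fell 3.53-fold with both lines averaged (log2 -1.82 ± 0.30, 95% interval -2.48 to -1.16, edgeR adjusted p = 0.0163) and 4.93-fold in Mx1-Cre (adjusted p = 0.0112). In Vav-Cre alone it was not called (-1.34 ± 0.39, adjusted p = 0.173). The averaged call of Csf3r was lost without wild type 1, 2 or 3 (adjusted p 0.0556 to 0.0711).

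Fcgr3 encodes the low-affinity IgG receptor CD16 of neutrophils, macrophages and NK cells. Its levels were 2.72, 2.87 and 2.27 CPM in Mx1-Cre and 0.841 and 1.52 CPM in Vav-Cre libraries, against 4.36, 7.32 and 7.0 CPM in wild type, with no overlap. The averaged fold was 3.53-fold lower (log2 -1.82 ± 0.32, 95% interval -2.53 to -1.11, edgeR adjusted p = 0.0209), and the call was lost without wild type 2 or 3 (adjusted p 0.132 and 0.115 for Fcgr3). Neither line passed alone, with adjusted p of 0.108 in Mx1-Cre and 0.0508 in Vav-Cre. The raw counts of Fcgr3 were 64 to 88 in Mx1-Cre, 24 and 49 in Vav-Cre and 132 to 225 in wild type libraries. Fcgr3 is nearly identical over part of its sequence to Fcgr2b, the inhibitory IgG receptor. How the counting treated reads that match both was not stated, so the value of Fcgr3 is uncertain. Fcgr2b, looked at after its values were seen, stood at 13.9, 17.1 and 9.83 CPM in Mx1-Cre and 27.99 and 7.25 CPM in Vav-Cre libraries, against 5.38, 4.56 and 5.88 CPM in wild type. The averaged log2 fold change of Fcgr2b, 1.55 ± 0.40, had the opposite sign to that of Fcgr3 and did not pass the test (edgeR adjusted p = 0.0732).

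Clec12a encodes an inhibitory C-type lectin of myeloid cells that binds uric acid crystals from dead cells. It had 10.3, 10.1 and 9.01 CPM in Mx1-Cre and 5.39 and 5.92 CPM in Vav-Cre libraries, against 13.9, 14.1 and 12.7 CPM in wild type. The libraries fell into separate ranges by group, Vav-Cre lowest and wild type highest. Clec12a fell 1.82-fold with both lines averaged (log2 -0.87 ± 0.18, 95% interval -1.26 to -0.47, edgeR adjusted p = 0.0335), the smallest fall among the 5 called genes. It passed in neither line alone (adjusted p = 0.276 in Mx1-Cre and 0.0508 in Vav-Cre). The averaged call of Clec12a held in 8 of 15 alternative fits and was lost on leaving out any wild type library (adjusted p 0.129 to 0.180), Mx1-Cre 1 (0.0712), Vav-Cre 1 (0.0614) or Vav-Cre 2 (0.0539).

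Csf1r encodes the M-CSF receptor, on which most monocytes and macrophages depend. Its levels were low: 1.02, 0.399 and 2.98 CPM in Mx1-Cre and 1.05 and 0.0620 CPM in Vav-Cre libraries, against 3.10, 2.56 and 1.87 CPM in wild type. Only 2 reads fell on it in Vav-Cre 2, while Mx1-Cre 3 lay within the wild type range. The averaged log2 fold change of -1.48 ± 0.77 had a 95% interval of -3.18 to 0.23 and did not pass (edgeR adjusted p = 0.383). The filter is set by a minimum of 10 counts, which Csf1r reached in 3 of 3 Mx1-Cre, 1 of 2 Vav-Cre and 3 of 3 wild type libraries. Hmgxb3 overlaps it on the opposite strand, which unstranded counting cannot resolve.

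The transcription factors of the set showed no called difference. Cebpa encodes C/EBP alpha, without which mice form no granulocyte-monocyte progenitors. It had 2.13, 2.00 and 3.44 CPM in Mx1-Cre and 1.09 and 1.83 CPM in Vav-Cre libraries, against 1.09, 1.74 and 2.08 CPM in wild type. The ranges overlapped in both lines, and the averaged log2 fold change was 0.23 ± 0.42 (95% interval -0.71 to 1.16, edgeR adjusted p = 0.862). Since that interval still includes a fall of 0.71 and a rise of 1.16 on the log2 scale, a moderate difference was not detectable at 31 to 97 counts per library. Gm45091 overlaps Cebpa on the opposite strand. Cebpe encodes C/EBP epsilon, needed for secondary granules, and was close to the limit of detection with 6 to 23 counts in Mx1-Cre, 2 and 16 in Vav-Cre and 15 to 52 in wild type libraries. Its levels of 0.432, 0.834 and 0.213 CPM in Mx1-Cre and 0.0701 and 0.496 CPM in Vav-Cre overlapped those of wild type, 0.660, 0.492 and 1.62 CPM. The log2 fold change of Cebpe was -1.29 ± 0.79 (95% interval -3.03 to 0.45, edgeR adjusted p = 0.472).

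Csf3r is a gene that C/EBP alpha is known to activate, and the pair was therefore set side by side. Per Cebpa count there were 2.82 to 8.45 Csf3r counts with Mx1-Cre and 14.8 and 21.4 with Vav-Cre, against 27.4 to 86.5 in wild type. The 3 groups did not overlap in this ratio. Csf3r by itself already separated all knockout libraries from wild type, so the ratio adds no separate evidence of that difference. The ratio is a description and was given no test.

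**Figure D3:**
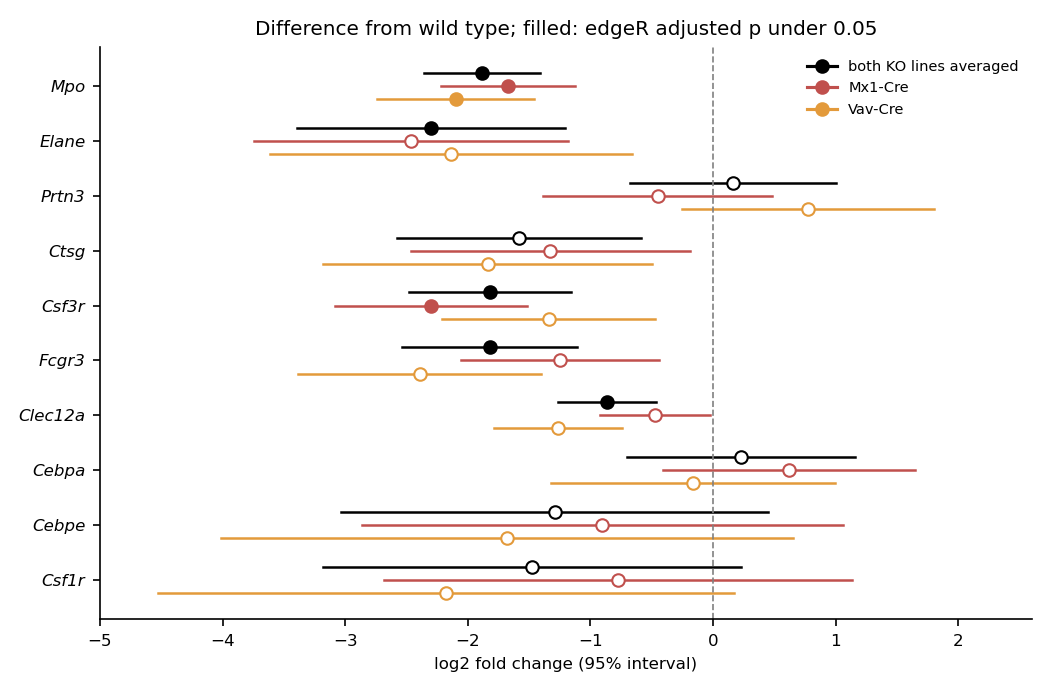
Log2 fold change of each of the 10 genes with its 95% interval (edgeR, 8 libraries in 1 fit) for both knockout lines averaged, Mx1-Cre and Vav-Cre against wild type. The intervals of Mpo, Elane, Ctsg, Csf3r, Fcgr3 and Clec12a for both lines averaged lie below 0, and those of Prtn3, Cebpa, Cebpe and Csf1r include 0.

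Divided by exon length, so that genes can be set against each other, the order of levels differed between the groups. In Mx1-Cre libraries Prtn3 came first at 57.4 ± 20.4, ahead of Mpo at 32.4 ± 10.3 and Elane at 21.8 ± 14.7 CPM per kilobase, with overlapping ranges between neighbours (SD, n = 3). In Vav-Cre libraries Prtn3 was at 134 ± 114, Elane at 27.3 ± 19.3 and Mpo at 24.1 ± 1.01 CPM per kilobase (n = 2). In wild type libraries Elane came first: it stood at 120 ± 31.0 CPM per kilobase, Mpo at 103 ± 26.8 and Prtn3 at 78.5 ± 10.4 (SD, n = 3), and the ranges of neighbours overlapped. The remaining order in wild type was Csf3r at 19.9 ± 6.0, Ctsg at 7.52 ± 1.33, Clec12a at 5.43 ± 0.299 and Fcgr3 at 4.62 ± 1.21 CPM per kilobase. Cebpe, Cebpa and Csf1r lay lowest and overlapped, at 0.744 ± 0.489, 0.621 ± 0.192 and 0.514 ± 0.127 CPM per kilobase in wild type. Exon lengths came from a later annotation than the mm9 counts, so these levels are approximate.

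Each knockout line was next set against wild type; both contrasts share the wild type libraries. In Mx1-Cre, Mpo and Csf3r fell, 2 of the 10 genes, where 2.1% of all tested genes were called lower. In Vav-Cre, Mpo alone fell, where 0.319% were called lower. The median log2 fold change of the 10 genes was -1.08 for Mx1-Cre and -1.76 for Vav-Cre, against 0.01 and -0.01 over all tested genes. With DESeq2, 5 genes of the set were called in Vav-Cre, where that tool called 4.34% of all genes, and at an unadjusted p under 0.05 in edgeR there were 6, where 13.4% of all genes passed. The 2 Vav-Cre libraries leave that contrast the least precise.

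Whether the lines differ was asked by Vav-Cre minus Mx1-Cre in the same fit. Of the 10 genes, 0 were called by edgeR's quasi-likelihood test, where 0.17% of all genes were. At an unadjusted p under 0.05 there were 4, Prtn3, Csf3r, Fcgr3 and Clec12a, where 13.3% of all genes passed, and DESeq2 called 1, Clec12a, where it called 3.39% of all genes. Prtn3 was 1.22 ± 0.46 higher in Vav-Cre on the log2 scale (95% interval 0.20 to 2.25, edgeR adjusted p = 0.299), and Csf3r 0.96 ± 0.37 higher (0.13 to 1.79, adjusted p = 0.313). Fcgr3 was lower in Vav-Cre (-1.14 ± 0.43, -2.09 to -0.20, adjusted p = 0.294), as was Clec12a (-0.79 ± 0.23, adjusted p = 0.203). For Mpo the difference between the lines was -0.43 ± 0.27 with a 95% interval of -1.03 to 0.17 (adjusted p = 0.547), and for Elane 0.33 ± 0.62 with an interval of -1.04 to 1.69 (adjusted p = 0.875). The Prtn3 difference rested on Vav-Cre 2, without which it was -0.10.

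Genes that work with the 10 were followed as 4 further lists. Of 11 other proteins of the primary granule, among them Ctsc, which activates the serine proteases, and the lysozymes Lyz1 and Lyz2, 0 were called with both lines averaged in edgeR. Their median log2 fold change was -0.23; 2 had an unadjusted p under 0.05, where 16.5% of all genes did, and DESeq2 called 0, where it called 6.77% of all genes. Cd63, a membrane protein of these granules and of other lysosome-related organelles, was the exception in Mx1-Cre, where it fell (log2 -0.62 ± 0.14, edgeR adjusted p = 0.0428). It had 55.1, 62.4 and 61.5 CPM in Mx1-Cre and 79.3 and 97.1 CPM in Vav-Cre libraries, against 84.7, 99.5 and 91.6 CPM in wild type. Vav-Cre overlapped wild type for Cd63 and Mx1-Cre did not. The Mx1-Cre call of Cd63 was lost in 7 of 16 alternatives, which include leaving out any 1 wild type or Mx1-Cre library (adjusted p 0.0594 to 0.200).

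Of 12 further regulators, edgeR called 2 lower with both lines averaged, where 2.1% of all tested genes were. The other 10 did not pass, and the median was -0.24. At an unadjusted p under 0.05 there were 3, where 16.5% of all genes passed, and DESeq2 called 2 lower, where it called 6.77% of all genes. Of the 2 called by edgeR, the first was Gfi1, a repressor that favours neutrophils over monocytes and that stem cells also use. The other was Klf4, a factor of monocyte differentiation. Gfi1 had 7.38, 5.62 and 7.13 CPM in Mx1-Cre and 9.88 and 7.93 CPM in Vav-Cre libraries, against 15.6, 16.4 and 12.7 CPM in wild type. No library of Gfi1 overlapped, and it fell by 0.95 on the log2 scale (-0.95 ± 0.20, edgeR adjusted p = 0.0354) and in Mx1-Cre (-1.15 ± 0.23, adjusted p = 0.0295). Gfi1 lost the averaged call in 6 of 15 alternatives, which include leaving out any 1 wild type library, Mx1-Cre 1 or Vav-Cre 2 (adjusted p 0.0674 to 0.208). Its Mx1-Cre call was lost in 7 of 16, which include leaving out any 1 wild type or Mx1-Cre library (0.0605 to 0.150). Klf4 had 4.63, 6.71 and 3.98 CPM in Mx1-Cre and 1.75 and 5.14 CPM in Vav-Cre libraries, against 14.0, 13.1 and 11.1 CPM in wild type, again with no overlap. The averaged log2 fold change of Klf4 was -1.60 ± 0.33 (edgeR adjusted p = 0.0339); in Mx1-Cre alone it did not pass (adjusted p = 0.104). The averaged call of Klf4 was lost in 5 of 15 alternatives, without any 1 wild type library, Mx1-Cre 1 or Mx1-Cre 3 (adjusted p 0.0513 to 0.147). The Mx1-Cre result of Klf4 passed in 5 of 16, among them limma-voom (adjusted p = 0.00793) and DESeq2 (0.0186).

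The 13 myeloid receptors and signalling genes include the receptors for GM-CSF and interleukin 3. With both lines averaged, edgeR called 1 lower, where 2.1% of all tested genes were, and 12 did not pass, with a median of -0.10. At an unadjusted p under 0.05 there were 4, where 16.5% of all genes passed. DESeq2 called 3 lower and 1 higher, where it called 6.77% of all genes. The gene called by edgeR was Il6st, the gp130 subunit shared by the receptors of the interleukin 6 family. It had 17.7, 20.5 and 16.1 CPM in Mx1-Cre and 19.5 and 24.5 CPM in Vav-Cre libraries, against 37.1, 29.1 and 38.3 CPM in wild type. All knockout libraries lay below wild type, with a log2 fold change of -0.80 ± 0.17 for both lines (edgeR adjusted p = 0.0341) and -0.95 ± 0.19 for Mx1-Cre (adjusted p = 0.0312). Il6st lost the averaged call in 7 of 15 alternatives, which include leaving out any 1 wild type library, Mx1-Cre 1, Mx1-Cre 3 or Vav-Cre 1 (adjusted p 0.0521 to 0.180). Its Mx1-Cre call was lost in 6 of 16, which include leaving out any 1 wild type library, Mx1-Cre 1 or Mx1-Cre 3 (0.0760 to 0.146).

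Of 20 other genes known from granulocyte-monocyte progenitors, 18 were tested. With both lines averaged, edgeR called 2 lower, where 2.1% of all tested genes were, and 16 did not pass. The median was -0.63. At an unadjusted p under 0.05 there were 12 of the 18, where 16.5% of all genes passed. DESeq2 called 4 lower and 1 higher, where it called 6.77% of all genes. The 2 called by edgeR, Mgst1 and Gstm1, encode glutathione transferases. Mgst1 had 15.3, 19.3 and 13.6 CPM in Mx1-Cre and 26.6 and 20.9 CPM in Vav-Cre libraries, against 44.0, 44.7 and 44.0 CPM in wild type. Its log2 fold change was -1.18 ± 0.16 with both lines averaged (edgeR adjusted p = 0.00952) and -1.46 ± 0.19 in Mx1-Cre (adjusted p = 0.00548). Gstm1 had 65.5, 80.1 and 67.1 CPM in Mx1-Cre and 117 and 155 CPM in Vav-Cre libraries, against 147, 156 and 151 CPM in wild type. Its log2 fold change was larger in Mx1-Cre (-1.10 ± 0.14, edgeR adjusted p = 0.00639) and smaller with both lines averaged (-0.63 ± 0.13, adjusted p = 0.0309), and Vav-Cre 2 lay within the wild type range of Gstm1. The averaged call of Gstm1 was lost in 5 of 15 alternatives, without any 1 wild type library, Mx1-Cre 1 or Vav-Cre 1 (adjusted p 0.0556 to 0.159), and that of Mgst1 in 2 of 15, without wild type 2 (0.0651) or 3 (0.0552). The Mx1-Cre calls of Mgst1 and Gstm1 held in 16 of 16 alternatives.

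In Vav-Cre against wild type, edgeR called 0 genes in each of these 4 lists. At an unadjusted p under 0.05 there were 0 of 11 granule proteins, 3 of 12 regulators, 4 of 13 receptors and signalling genes and 7 of 18 other progenitor genes, where 13.4% of all genes passed. DESeq2, which called 4.34% of all genes, called 0 granule proteins, 2 regulators lower, 1 receptor or signalling gene higher and 1 lower, and 2 other progenitor genes higher and 3 lower. In Mx1-Cre, edgeR called 1, 1, 1 and 2 genes of the lists lower, where 2.1% of all tested genes were, and 0 higher, and the 5 called were the Cd63, Gfi1, Il6st, Mgst1 and Gstm1 described above.

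**Figure D4:**
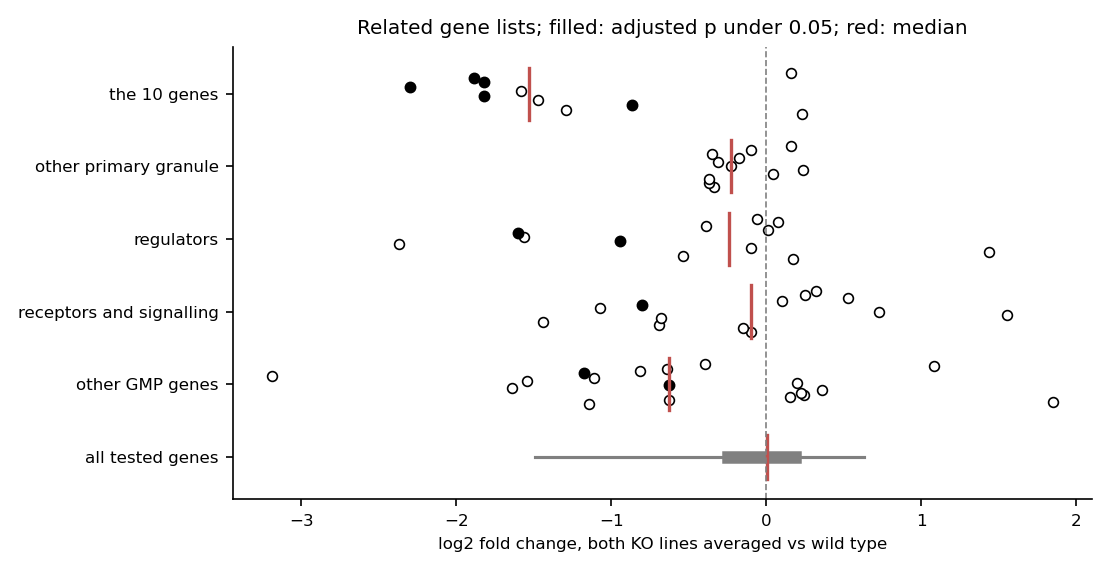
Log2 fold change of every tested gene of the set of 10 and of the 4 further lists, both knockout lines averaged against wild type; points are genes, filled where called by edgeR, vertical lines are medians, and the bottom row shows all tested genes from the 5th to the 95th percentile, thick from the 25th to the 75th. The set of 10 has a median of -1.53, and the medians of the 4 lists shown with it lie between -0.63 and -0.10; the mature neutrophil and the monocyte and macrophage marker lists, not drawn here, had medians of -1.62 and -1.35.

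Markers of other cells that the gate could let through were summed in each library. The 11 mature neutrophil markers came to 471, 577 and 104 CPM in Mx1-Cre and 10.1 and 282 CPM in Vav-Cre libraries, against 324, 530 and 1161 CPM in wild type. The Mx1-Cre sums overlapped those of wild type and both Vav-Cre sums lay below them; with both lines averaged, edgeR called 0 of the 11, 4 stood at an unadjusted p under 0.05 (16.5% of all genes), and 2 were called by DESeq2 (6.77% of all genes). Their median log2 fold change was -1.62, with 10 of 11 negative, beside the -1.53 of the 10 genes. Monocyte and macrophage markers summed to 41.5 to 45.2 CPM in Mx1-Cre and 42.5 and 46.8 CPM in Vav-Cre libraries, against 33.6 to 55.6 CPM in wild type. Cd68, a lysosomal protein of macrophages and other cells, made up most of the knockout sums, at 24.6 to 32.4 CPM in Mx1-Cre and 35.2 and 37.4 CPM in Vav-Cre libraries, against 16.2 to 25.1 CPM in wild type. The other 8 of the 9 monocyte and macrophage markers had a negative log2 fold change with both lines averaged, and the median of the 9 was -1.35. Of the 9, edgeR called 0, 4 stood at an unadjusted p under 0.05, and DESeq2 called 1 higher and 1 lower. The sum of the mast cell and basophil markers was above wild type in every knockout library. Of 5 tested, Fcer1a and Cpa3 were called higher, where 0.547% of all genes were, and 2 had a negative fold. Mcpt8 was at 0 to 0.319 CPM in the knockout libraries, against 0.218 to 1.52 CPM in wild type. Megakaryocyte markers summed to 508 to 752 CPM in Mx1-Cre and 321 and 596 CPM in Vav-Cre libraries, against 680 to 875 CPM in wild type. Erythroid markers came to 109 to 251 CPM in Mx1-Cre and 15.2 and 42.3 CPM in Vav-Cre libraries, against 77.1 to 161 CPM in wild type, with Hba-a1 and Hbb-b1 at 0 counts in every library. B cell markers summed to 35.5 to 71.7 CPM in the knockout and 64.2 to 83.2 CPM in the wild type libraries, and T cell markers to 19.7 to 34.0 and 23.3 to 28.4 CPM. The part of these markers in the results was not tested.

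**Figure D5:**
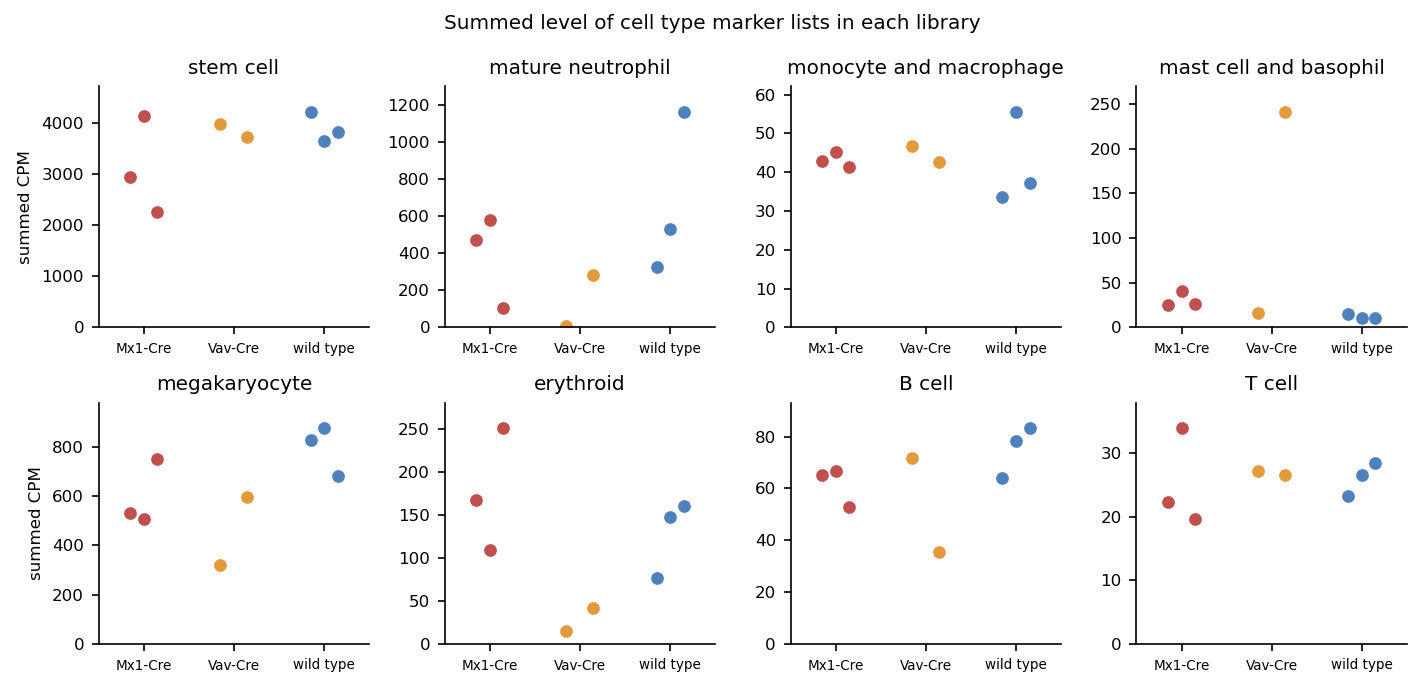
Summed level of each marker list per library, in TMM-scaled CPM on a linear axis that differs between panels; points are libraries, grouped as Mx1-Cre, Vav-Cre and wild type. The mast cell and basophil sum of the second Vav-Cre library, at 241 CPM, lies far above the other libraries and is mostly Fcer1a. The mature neutrophil sums of Mx1-Cre and wild type overlap, and both Vav-Cre sums lie below wild type.

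Finally, genes were ranked by how closely their pattern over the 8 libraries followed Mpo, as the root mean square difference of mean-centred log2 CPM. Among the 10 genes themselves, Ctsg was nearest at 0.512, then Fcgr3 at 0.567, Clec12a at 0.596 and Csf3r at 0.654. Prtn3 was the farthest, at 1.21, and Elane stood between at 0.863. Outside the sets named so far, 5 of 9519 genes came closest: Myo7a at 0.369, Fkbp11 at 0.379, Cnrip1 at 0.382, and Kalrn and Fzd3 at 0.428 each, where the median over all candidates was 0.986. Myo7a averaged 10.2 ± 1.30 CPM in Mx1-Cre and 5.04 ± 0.494 CPM in Vav-Cre libraries, against 22.4 ± 1.25 CPM in wild type (SD, n = 3, 2 and 3). Fkbp11 averaged 6.42 ± 1.44 and 5.65 ± 0.511 CPM in these lines, against 22.1 ± 5.55 CPM in wild type. These genes were picked for likeness to Mpo, so their levels are a description with no test.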

How the data were processed

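RNA-seq reads were aligned and counted by the authors, and the deposited table holds raw counts per gene symbol for 8 libraries, as whole numbers. The labels' protocols name a SMARTer kit for cDNA, a NEBNext kit for the libraries and an unstranded method. TopHat, SAMtools, HTSeq and edgeR, with build mm9, are named per the submitters' processing notes; for versions and counting annotation, nothing was stated in the sources used here. A second deposited table of scaled values was not used. Samples were grouped by title. Counts were tested with edgeR 4.0.16 (R 4.3.3) by the quasi-likelihood test after filterByExpr (minimum count 10, minimum total 15) and TMM scaling, in 1 fit over 8 libraries with group as the only term, and p-values were adjusted by Benjamini-Hochberg over 14086 genes. Standard errors were taken as the size of the log2 fold change over the root of the F statistic, and intervals are 95%. For log2 CPM a prior count of 2 was added. Libraries of a group correlated at 0.954 to 0.978, and none was treated as a duplicate.

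The 10 genes and all lists were chosen with earlier results of these data known. Named genes were the 10, up to 6 genes of each list called in any comparison (smallest p first), Huwe1, the 4 gate genes and the 5 genes most like Mpo with mean log2 CPM of at least 3; Fcgr2b, the genes in marker lists and Ctsc, Lyz1 and Lyz2 fall outside that rule. Spi1 and Adgre1 were matched by older symbols. Alternatives were DESeq2 1.42.0, limma-voom (limma 3.58.1), other scalings and filters, only the groups compared, a replicate block, and each library left out in turn. Every limma-voom fit used quality weights, which give libraries unequal weight. Reads carry no molecular identifiers.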

Additional observations from a re-analysis of the deposited data

Results flagged for a closer look

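Slamf1, which encodes CD150 of the sort gate, differed between the knockout lines. It had 49.0, 53.6 and 58.1 CPM in Mx1-Cre and 105 and 108 CPM in Vav-Cre libraries, against 68.4, 62.8 and 67.3 CPM in wild type. The Vav-Cre minus Mx1-Cre log2 difference was 0.99 ± 0.14 (edgeR adjusted p = 0.0346). The adjusted p for Slamf1 ranged from 8.29e-08 to 0.166 over 16 alternatives, and 7 of them passed.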

How the results depend on the processing

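With both lines averaged, 5 of the 10 genes were called. The replicate block gave 3, leaving out 1 library 1 to 5, with 2 without wild type 1, 1 without wild type 2 or 3 and 3 without Mx1-Cre 1 or Vav-Cre 1, and the other alternatives 5 or 6. In Mx1-Cre, 2 were called, DESeq2 and limma-voom gave 4 each, and leaving out 1 library 1 to 3. In Vav-Cre, 1 was called, DESeq2 gave 5, library totals alone 3, no filter 3, and leaving out 1 library 0 to 3, with 0 without wild type 2 or Vav-Cre 2. Between the lines 0 were called, DESeq2 gave 1, and leaving out 1 library 0 to 1, that 1 being Prtn3 (higher, adjusted p = 0.0174) without Vav-Cre 1. Over all genes, both lines averaged gave 373 calls, against 953 with DESeq2, 992 with limma-voom, 218 with the replicate block and 22 to 502 with 1 library left out. The cause of these moves was not tested.

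Mpo kept its averaged call in 15 of 15 alternatives (adjusted p 3.59e-14 to 0.0347). It lost the Mx1-Cre call without wild type 2 (0.0513) and the Vav-Cre call without wild type 2 (0.0964) or Vav-Cre 2 (0.101). The replicate block moved the averaged calls of Elane (adjusted p = 0.0691), Clec12a (0.0669), Gfi1 (0.0655) and Il6st (0.0800) past 0.05, and likewise the Mx1-Cre calls of Cd63 (0.0606), Gfi1 (0.0542) and Il6st (0.0655) and the Slamf1 difference between the lines (0.111). Directions that turned were all of genes not called: with both lines averaged, Prtn3 under limma-voom (-0.19), the replicate block (-0.0105) and leaving out 1 library (-0.50 to 0.50), Kit (-0.0232 to 0.35) and Ly6a (-0.73 to 0.0261). In Vav-Cre they were Prtn3 (-0.55 to 1.45) and Cebpa (0.0595 with the replicate block, -0.59 to 0.16 with 1 library left out). Between the lines they were Elane (-0.67 to 0.91), Prtn3 (-0.10 to 1.90), Ctsg (-1.72 to 0.13) and Cebpe (-2.74 to 0.00918). Over single genes and alternatives, 781 values kept direction and side of the threshold, 75 lost it, 33 gained it and 14 turned. Group levels moved by less than 1 SD with library totals in 30 of 30 cases. Fits of only the groups compared were not run for the averaged lines, and Cebpe did not reach 1 CPM in 2 libraries.

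Replicate numbers share nothing stated in the labels: same-numbered libraries of different groups correlated in their deviations at -0.0705 to 0.129 in 7 pairs, and others at -0.177 to 0.163 in 14 pairs, so the block result is given only here. Counts under 100 limit Cebpa, Cebpe and Csf1r in every library, Fcgr3 in every knockout library and Ctsg in several of them. The 2 Vav-Cre libraries limit every statement on that line.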
